A study of Homo sapiens with 21 samples.

Results

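The MYC, MAX and MXD network is described here through 10 genes, MYC, MYCN, MYCL, MAX, MXD1, MXD4, MXI1, MNT, MLX and MGA, whose identifiers were looked up by symbol among the 60668 gene rows of each count table; all 10 were found, each in 1 row. Gene-level RNA-seq counts came from 21 libraries of adherent HCC1806 cells, a line established from triple-negative breast cancer. A first table held a MYC-overexpressing line (MYC-OE), a line labelled 3xSR, taken here as the splicing factors SRSF2, SRSF3 and SRSF7 overexpressed jointly, and their control (3xCTL). The 4 groups of a second table were SRSF2-OE, SRSF3-OE and SRSF7-OE, each named for the 1 factor it is taken to overexpress, and 1xCtrl, their control. Each of the 7 groups had 3 libraries. The labels name neither vectors nor promoters, nor whether a line is 1 clone, and 3xCTL may not carry the vector used for MYC-OE. Nothing in the labels says that libraries of a group came from separate cultures, so the p-values measure only the spread between these libraries, which may be technical.

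MYC, MYCN and MYCL are transcription factors of the basic helix-loop-helix leucine zipper class that bind DNA only as dimers with MAX, at the E-box CACGTG and related letters. MXD1, MXI1 (also called MXD2), MXD4 and MNT pair with the same MAX, bind the same sites and recruit the SIN3 histone deacetylase corepressor, so that they are known as antagonists of MYC. MLX is a second hub, which pairs with the glucose-sensing factors MondoA (MLXIP) and ChREBP (MLXIPL) and with some of the antagonists, and MGA is a large MAX partner that also holds a T-box domain and builds a Polycomb complex, PRC1.6. MYC is an oncogene that is often abundant in triple-negative breast cancer.

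Since every dimer of the network reads the E-box, the promoter windows of its own genes were searched for CACGTG, whose letters are the same on both strands. The windows run from 250 bases before to 50 bases after an annotated start in RefSeq (GRCh38.p14), and 9 of the 10 genes had at least 1, all but MYC. The motif was found for 3 of these 9 genes, MLX, MNT and MXD4 (33.3%, against 8.77% of the 27305 genes with a window), or in 3 of their 14 windows (21.4%, against 7.26% of all 35116 windows). The windows of MYCN, MYCL, MAX, MXD1, MXI1 and MGA did not hold these letters. The 3 windows that do are shown because their genes are members, and that of ARRDC4, which encodes an arrestin-domain protein and is a target of MLX with MondoA, because the gene rose most after TXNIP among those targets in MYC-OE. They lie at chr17:42566850-42567149 on the plus strand (MLX), chr17:2401011-2401310 on the minus strand (MNT), chr4:2262060-2262359 on the minus strand (MXD4) and chr15:97960453-97960752 on the plus strand (ARRDC4). Each is written 5′ to 3′, and capitals mark CACGTG.
MLX: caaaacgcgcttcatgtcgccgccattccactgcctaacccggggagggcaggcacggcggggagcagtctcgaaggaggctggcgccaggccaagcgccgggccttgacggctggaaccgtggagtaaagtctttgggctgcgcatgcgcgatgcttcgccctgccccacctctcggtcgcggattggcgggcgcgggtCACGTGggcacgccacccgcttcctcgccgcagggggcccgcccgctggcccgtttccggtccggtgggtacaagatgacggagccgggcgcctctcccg
MNT: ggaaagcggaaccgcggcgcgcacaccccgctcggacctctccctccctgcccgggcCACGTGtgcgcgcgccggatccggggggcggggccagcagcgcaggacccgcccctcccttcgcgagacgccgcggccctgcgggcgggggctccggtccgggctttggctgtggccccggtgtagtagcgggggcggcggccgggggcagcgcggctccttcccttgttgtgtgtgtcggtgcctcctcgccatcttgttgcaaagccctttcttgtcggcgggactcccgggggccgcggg
MXD4: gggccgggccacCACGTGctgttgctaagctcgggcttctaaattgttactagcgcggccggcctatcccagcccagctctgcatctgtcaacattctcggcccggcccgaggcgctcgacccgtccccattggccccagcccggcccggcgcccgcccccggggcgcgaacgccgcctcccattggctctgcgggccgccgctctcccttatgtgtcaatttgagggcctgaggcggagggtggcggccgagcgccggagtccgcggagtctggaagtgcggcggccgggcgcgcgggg
ARRDC4: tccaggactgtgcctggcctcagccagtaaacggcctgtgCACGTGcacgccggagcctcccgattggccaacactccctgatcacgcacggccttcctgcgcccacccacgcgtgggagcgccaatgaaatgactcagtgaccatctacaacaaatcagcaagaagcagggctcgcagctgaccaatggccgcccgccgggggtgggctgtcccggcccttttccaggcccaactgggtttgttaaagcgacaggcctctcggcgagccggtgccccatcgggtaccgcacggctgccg
The motif starts 50 bases before the annotated start in MLX, 193 before it in MNT, 238 before it in MXD4 and 210 before it in ARRDC4. A match describes these letters and not bound protein, which was not measured.

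Depth was high, from 143269192 to 303323552 counts per library, so that 3 counts, taken as the detection floor, stood for 0.00947 to 0.0210 CPM (counts per mega-count after TMM scaling of library sizes, the scale of all levels unless another is named). Replicates differed beyond counting error, and 1xCtrl replicate 2 stood furthest from the others of its group (chi-square per degree of freedom of 223 and 317 against them, 28.3 between those others), followed in the first table by 3xCTL replicate 2 (123 and 93.6, with 27.6 between the others). The cells carried epithelial and basal markers, among them KRT5 (1600 to 2651 CPM) and EPCAM (517 to 705 CPM), and the T cell gene CD3E was at or under the floor in 19 of 21 libraries. Of the luminal and hormone receptor markers reported here, PGR was at or under the floor in 14 libraries, while ESR1 (6.49 to 11.5 CPM), FOXA1 (9.72 to 21.4) and GATA3 (18.0 to 28.1) were above it in all. Of the leukocyte markers CD68 moved with the groups: the 4 markers summed to between 6.19 and 11.0 CPM in 3xCTL, 16.6 and 20.5 in 3xSR and 32.5 and 36.5 in MYC-OE, with 9.40 to 15.7 in 1xCtrl and 20.5 to 32.2 in the other lines of the second table. These sums were almost all CD68, which ranged from 5.92 to 36.1 CPM, while CD3E and CD79A reached at most 0.0254 and 0.0769 CPM. CD68 shares 1789 of its 2189 exon bases with AC016876.2 on the same strand, so its counts are uncertain. PTPRC, the pan-leukocyte gene, lay between 0.126 and 0.539 CPM in all libraries, and the part of these markers in the results was not tested. SRSF2 itself stood no higher than its control in the libraries labelled 3xSR (386 CPM ± 12, SD, n = 3, against 403 ± 18.3 in 3xCTL, edgeR adjusted p = 0.389) or SRSF2-OE (398 ± 19.6 against 444 ± 31.5 in 1xCtrl, edgeR adjusted p = 0.098), so each direction below for these groups belongs to the libraries labelled so. SRSF3 was raised by 0.31 (log2) in 3xSR and 0.49 in SRSF3-OE, and SRSF7 by 0.44 in 3xSR and 0.26 in SRSF7-OE.

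MYC (ENSG00000136997.19, chromosome 8 from 127735434 to 127741434 in GENCODE release 29, GRCh38) was the most abundant member per length in each of the 7 groups, at 31.1 to 57.9 CPM per kilobase of merged exons (group means). MLX followed at 15.8 to 19.7, and MAX, MXD1, MXI1, MNT and MGA lay between 2.74 and 9.91. MYCL was between 0.482 and 0.919 and MXD4 between 0.293 and 0.388 CPM per kilobase. MYCN (ENSG00000134323.12, chromosome 2 from 15940564 to 15947007), the neuronal member of the family, had 0 counts in 18 libraries, 2 counts in each of 2 MYC-OE libraries and 4 in 1 SRSF7-OE library, the last just above the floor. It was therefore not tested, and 9 of the 10 members passed the filter on low counts in both tables.

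The MYC level was 96.6, 91.0 and 92.6 CPM in the 3 libraries of 3xCTL. In 3xSR it was 156, 156 and 159 CPM, and in MYC-OE 171, 170 and 181 CPM. All libraries of both lines lay above all control libraries, and those of MYC-OE above those of 3xSR. Gene counts cannot tell transcripts of an introduced MYC from those of the cell's own gene, and in bulk RNA fewer cells with a transcript and less of it per cell cannot be told apart. MYC rose by a log2 fold change of 0.75 in 3xSR (SE 0.047, 1.68-fold, edgeR adjusted p = 4.01e-07) and of 0.90 in MYC-OE (SE 0.047, 1.86-fold, edgeR adjusted p = 5.7e-08). Both are measured against the same control libraries. Between the lines themselves MYC was higher in MYC-OE by 0.15 (SE 0.047, edgeR adjusted p = 0.029), a call that was lost when any 1 of the 6 libraries of these groups was left out or the GC trend was removed (adjusted p up to 0.483).

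Among the single lines, MYC stood at 131, 143 and 125 CPM in the libraries of 1xCtrl. SRSF2-OE had 147, 144 and 143 CPM, SRSF3-OE 162, 157 and 159 CPM, and SRSF7-OE 159.7, 157 and 165 CPM. The order of the means was 1xCtrl, SRSF2-OE, SRSF3-OE, SRSF7-OE, and the lowest SRSF2-OE library lay under the highest control library, replicate 2. The rise of MYC was 0.26 for SRSF3-OE (edgeR adjusted p = 0.00406) and 0.27 for SRSF7-OE (edgeR adjusted p = 0.00608), each with an SE of 0.057. These lines did not differ from each other beyond their spread (edgeR adjusted p = 0.871). In SRSF2-OE the change was 0.12 (SE 0.057, edgeR adjusted p = 0.165), and 0.17 without 1xCtrl replicate 2 (edgeR adjusted p = 0.0203). The MYC calls were the less firm in this table: that of SRSF3-OE was lost in 8 of 16 alternatives (adjusted p from 1.02e-05 to 0.136), among them leaving out 1xCtrl replicate 1 or 3 or any SRSF3-OE library, and that of SRSF7-OE in 5, among them leaving out 1xCtrl replicate 1 or 3 or SRSF7-OE replicate 1 or 3.

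**Figure D1:**
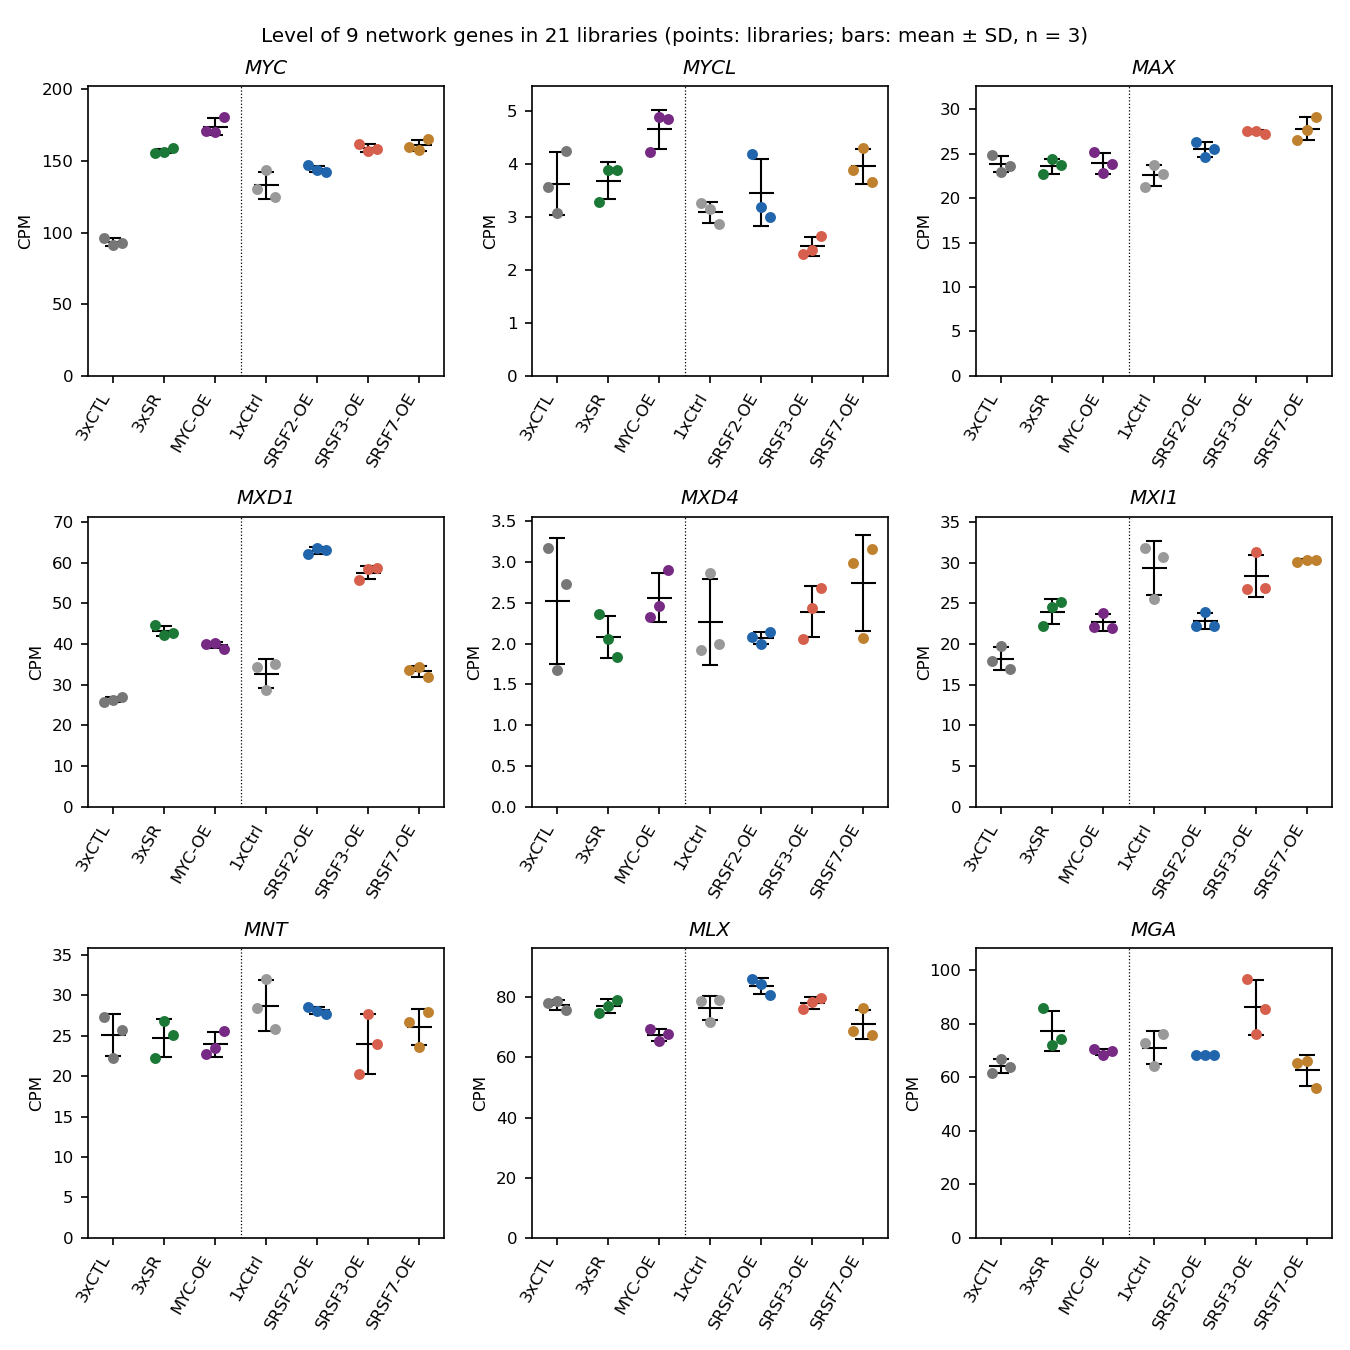
Level of 9 members in CPM (vertical axes, from 0) in the 7 groups, with points for libraries, bars for mean ± SD (n = 3) and a dotted line between the 2 count tables. MYC and MXD1 stand higher in 3xSR and MYC-OE than in 3xCTL, and MXD1 stands higher in SRSF2-OE and SRSF3-OE but not in SRSF7-OE.

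MYCL (ENSG00000116990.11, chromosome 1 from 39895426 to 39902256), the family member first found in lung cancer, was low throughout. Its level was 3.57, 3.07 and 4.24 CPM in 3xCTL, 3.29, 3.89 and 3.88 in 3xSR and 4.23, 4.88 and 4.85 in MYC-OE. It passed the threshold in MYC-OE (0.36 on the log2 scale with SE 0.13, edgeR adjusted p = 0.0481) although the highest control library lay above the lowest MYC-OE library, and 7 of 16 alternatives lost that call, among them leaving out 3xCTL replicate 1 or 2 or MYC-OE replicate 2 or 3. MYCL was 3.25, 3.14 and 2.87 CPM in 1xCtrl. SRSF2-OE had 4.18, 3.18 and 3.00 CPM, SRSF3-OE 2.31, 2.38 and 2.64, and SRSF7-OE 3.89, 4.31 and 3.66. Against 1xCtrl the log2 fold changes were 0.16, -0.34 and 0.36 (SE 0.13, edgeR adjusted p = 0.436, 0.076 and 0.0874), short of the threshold; 4 of 16 alternatives put that of SRSF3-OE past it, among them leaving out 1xCtrl replicate 3. SRSF3-OE was the lowest group and SRSF7-OE the highest, without overlap between them, and SRSF3-OE minus SRSF7-OE was -0.69 (SE 0.13, edgeR adjusted p = 0.00126).

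MAX (ENSG00000125952.20, chromosome 14 from 65006174 to 65102695), the shared partner, hardly differed in the first table. It was 24.8, 23.0 and 23.7 CPM in 3xCTL, 22.7, 24.4 and 23.7 in 3xSR and 25.1, 22.8 and 23.8 in MYC-OE, and the 3 groups overlapped. Its log2 fold changes were -0.01 in 3xSR and 0.01 in MYC-OE (SE 0.059 in both, edgeR adjusted p = 0.885 and 0.952). Against 21.3, 23.7 and 22.7 CPM in 1xCtrl, MAX read 26.3, 24.6 and 25.6 CPM for SRSF2-OE, 27.6, 27.6 and 27.2 CPM for SRSF3-OE, and 26.5, 27.7 and 29.1 CPM for SRSF7-OE. Every library of the 3 lines lay above every control library. With an SE of 0.062, MAX rose by 0.28 for SRSF3-OE (edgeR adjusted p = 0.00389) and 0.30 for SRSF7-OE (edgeR adjusted p = 0.00572), while the 0.17 in SRSF2-OE missed the threshold (edgeR adjusted p = 0.0589) except without 1xCtrl replicate 2 (0.0208). The call in SRSF3-OE was lost in 5 of 16 alternatives (total counts alone, only the groups compared, and without 1xCtrl replicate 1 or SRSF3-OE replicate 1 or 3), and that in SRSF7-OE in 3 (only the groups compared, and without 1xCtrl replicate 1 or SRSF7-OE replicate 3).

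MXD1 (ENSG00000059728.11, chromosome 2 from 69897688 to 69942945), an antagonist known to be induced as cells differentiate, gave the largest change of any member in the second table. It stood at 25.8, 26.2 and 27.0 CPM in 3xCTL, 44.6, 42.2 and 42.7 in 3xSR and 39.98, 40.2 and 38.8 in MYC-OE, without overlap between any 2 of the groups. The rise of MXD1 was 0.71 for 3xSR (SE 0.049, 1.64-fold, edgeR adjusted p = 8.15e-07) and 0.59 for MYC-OE (SE 0.049, edgeR adjusted p = 2.28e-06). The antagonist thus stood higher in the same libraries as MYC. 1xCtrl had 34.2, 28.6 and 35.1 CPM of it. SRSF2-OE had 62.1, 63.6 and 63.2 CPM, SRSF3-OE 55.6, 58.4 and 58.5, and SRSF7-OE 33.5, 34.4 and 31.9. MXD1 rose by 0.95 in SRSF2-OE (SE 0.073, 1.93-fold, edgeR adjusted p = 3.35e-06) and 0.82 in SRSF3-OE (SE 0.073, 1.76-fold, edgeR adjusted p = 4.76e-06), and by 0.85 and 0.72 without 1xCtrl replicate 2. SRSF7-OE overlapped its control (0.03, SE 0.073, edgeR adjusted p = 0.848). MXD1 was higher than in SRSF7-OE by 0.92 in SRSF2-OE (edgeR adjusted p = 3.8e-06) and by 0.79 in SRSF3-OE (edgeR adjusted p = 3.72e-06). In the annotation MXD1 shares 237 exon bases with SNRNP27 on the same strand, so some reads there could belong to either gene.

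MXI1 (ENSG00000119950.21, chromosome 10 from 110207605 to 110287365), a second SIN3-binding antagonist, rose in both lines of the first table and fell in 1 of the second. It was 18.0, 19.7 and 16.9 CPM in 3xCTL, 22.2, 24.6 and 25.2 in 3xSR and 22.1, 23.8 and 22.0 in MYC-OE. Both lines lay wholly above 3xCTL and overlapped each other. With an SE of 0.073 it rose by 0.40 for 3xSR (edgeR adjusted p = 0.00155) and 0.32 for MYC-OE (edgeR adjusted p = 0.00517). In 1xCtrl it was 31.8, 25.5 and 30.7 CPM, against 22.3, 24.0 and 22.2 in SRSF2-OE. SRSF3-OE had 26.8, 31.3 and 26.9 CPM and SRSF7-OE 30.1, 30.4 and 30.3 CPM. MXI1 fell in SRSF2-OE, where all libraries lay under the control libraries, by 0.36 (log2, SE 0.086, edgeR adjusted p = 0.00814) and by 0.46 without 1xCtrl replicate 2. The other lines overlapped the control, at -0.05 in SRSF3-OE and 0.04 in SRSF7-OE (edgeR adjusted p = 0.722 and 0.79).

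MXD4 (ENSG00000123933.17, chromosome 4 from 2247432 to 2262294) and MNT (ENSG00000070444.15, chromosome 17 from 2384060 to 2401118), the other 2 antagonists, stayed short of the threshold in the 5 comparisons with a control (edgeR adjusted p from 0.0896 to 0.951). MXD4 ranged from 1.67 to 3.17 CPM over the libraries, and the groups compared within a table overlapped. In 3xCTL its spread was as wide as in all libraries together (3.17, 1.67 and 2.73 CPM), and without replicate 2 of that group MXD4 was lower in 3xSR by 0.50 (edgeR adjusted p = 0.0144). MNT ranged from 20.3 to 32.0 CPM. Within the second table its mean was lowest in SRSF3-OE (20.3, 27.7 and 24.0 CPM against 28.4, 32.0 and 25.8 in 1xCtrl, log2 fold change -0.26, SE 0.11, edgeR adjusted p = 0.0896), a value that passed with upper-quartile factors, with total counts alone, without 1xCtrl replicate 3 or without SRSF3-OE replicate 2 (adjusted p from 0.0263 to 0.0347). MNT is the member with the highest GC content (61.4% of its longest transcript) and shares 1065 exon bases with a gene on the other strand; with each library's GC trend removed its value in 3xSR turned from -0.02 to 0.21 (edgeR adjusted p = 0.0103), while MNT passed as lower in MYC-OE (-0.16, edgeR adjusted p = 0.0271) and in MYC-OE against 3xSR (-0.37, edgeR adjusted p = 0.00011).

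MLX (ENSG00000108788.11, chromosome 17 from 42567068 to 42573239) was 78.0, 78.7 and 75.7 CPM in 3xCTL, 74.6, 77.2 and 79.2 in 3xSR and 69.3, 65.3 and 67.8 in MYC-OE. The MYC-OE libraries were the lowest of the 3 groups without overlap, while 3xSR overlapped 3xCTL. In MYC-OE, MLX fell by 0.20 (log2) against 3xCTL (SE 0.048, edgeR adjusted p = 0.00632) and by 0.19 against 3xSR (SE 0.048, edgeR adjusted p = 0.00881, lost without 3xSR replicate 3 or MYC-OE replicate 2). 1xCtrl had 78.7, 71.9 and 79.0 CPM of MLX, SRSF2-OE 86.1, 84.4 and 80.7, SRSF3-OE 76.0, 78.3 and 79.9, and SRSF7-OE 68.9, 76.5 and 67.4. Against 1xCtrl the log2 fold changes were 0.13, 0.03 and -0.11 (SE 0.063, edgeR adjusted p = 0.168, 0.794 and 0.267; 0.0441 for SRSF7-OE without its replicate 2), while SRSF2-OE was higher than SRSF7-OE by 0.24 (SE 0.063, edgeR adjusted p = 0.0145). MLX shares 770 exon bases with PSMC3IP on the opposite strand.

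MGA (ENSG00000174197.16, chromosome 15 from 41621224 to 41773081) was 61.5, 66.8 and 63.9 CPM in 3xCTL, 85.7, 72.0 and 74.3 in 3xSR and 70.4, 68.2 and 69.7 in MYC-OE. Both lines lay above the control, 3xSR with the wider spread. It rose in 3xSR by 0.27 (SE 0.066, edgeR adjusted p = 0.00838), and the 0.12 in MYC-OE missed the threshold (edgeR adjusted p = 0.197). In 1xCtrl MGA was 72.7, 64.2 and 76.2 CPM, in SRSF2-OE 68.2 CPM in each library, in SRSF3-OE 96.7, 76.1 and 85.5 CPM, and in SRSF7-OE 65.5, 66.2 and 56.0 CPM. SRSF3-OE narrowly overlapped its control, and its 0.28 (SE 0.093, edgeR adjusted p = 0.0383) was lost in 10 of 16 alternatives (adjusted p up to 0.249), among them leaving out any 1xCtrl library, SRSF3-OE replicate 1 or 3, and the replicate block (0.05). The difference between SRSF3-OE and SRSF7-OE was clearer, at 0.46 (SE 0.093, edgeR adjusted p = 0.0017).

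**Figure D2:**
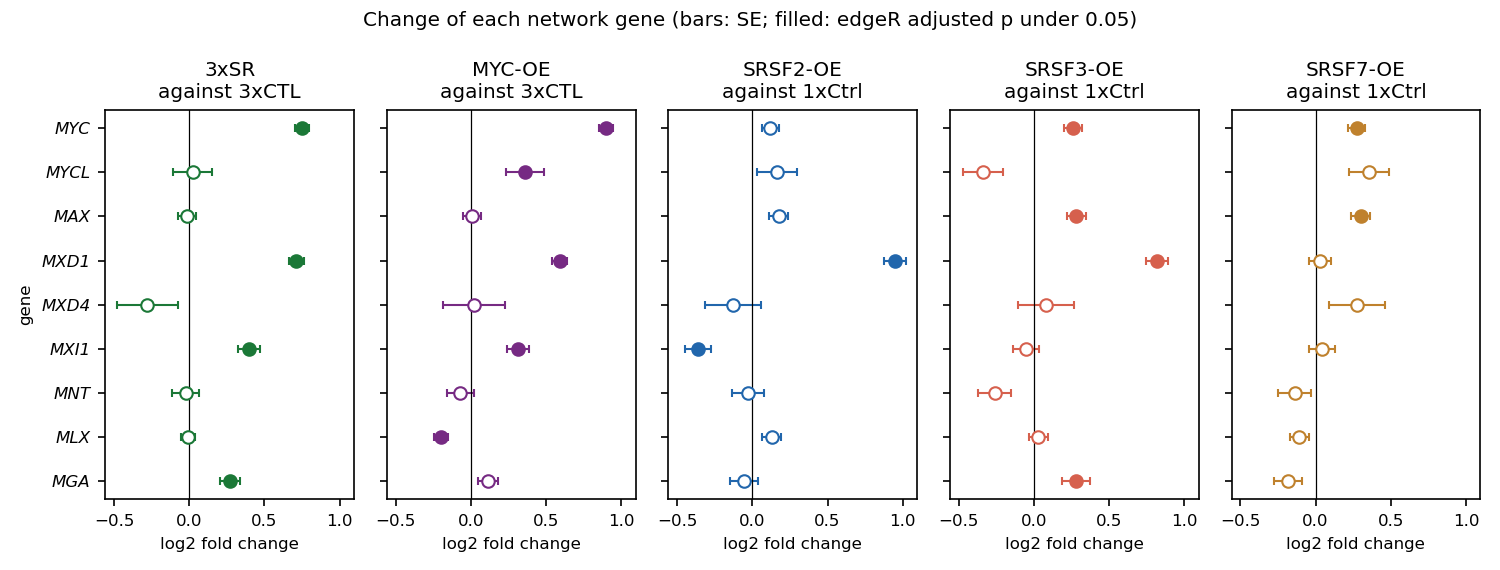
Log2 fold change (horizontal axis) of the 9 tested members in the 5 comparisons with a control, with bars for SE and filled points for edgeR adjusted p under 0.05. MYC, MXD1 and MXI1 lie above 0 in 3xSR and MYC-OE, and MXD1 is the outermost point in SRSF2-OE (0.95) and SRSF3-OE (0.82).

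Counted over the network, 4 of the 9 tested members passed the edgeR threshold in 3xSR (29.0% of 23160 genes did) and 5 in MYC-OE (35.3%). Of the single lines, SRSF2-OE had 2 members past it (23.5% of 24362 genes), SRSF3-OE 4 (29.2%) and SRSF7-OE 2 (17.3%). Between MYC-OE and 3xSR 2 passed (34.9%), and 3 did in each of SRSF2-OE against SRSF3-OE (26.8%), SRSF2-OE against SRSF7-OE (24.2%) and SRSF3-OE against SRSF7-OE (35.2%). The libraries of the groups did not overlap for 4 members in 3xSR (40.2% of genes), 5 in MYC-OE (48.3%), 3 in SRSF7-OE (32.6%), 4 in SRSF2-OE (35.9%) and 4 in SRSF3-OE (39.8%), and between lines for 5 in MYC-OE against 3xSR (53.2%), 8 in SRSF2-OE against SRSF3-OE (47.7%), 6 in SRSF2-OE against SRSF7-OE (46.0%) and 3 in SRSF3-OE against SRSF7-OE (52.6%). With 9 genes these shares are mostly near those of all genes, so the counts are no result about the network as a whole. The median log2 fold change of the 9 was 0.02 in 3xSR, 0.12 in MYC-OE and SRSF2-OE, 0.04 in SRSF7-OE and 0.08 in SRSF3-OE, and that of all genes tested lay between -0.03 and -0.0038. 3xSR and MYC-OE share their control libraries, as do the 3 single lines.

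Because the partners compete for MAX, their transcripts were also set against each other within each library, as log2 ratios of counts per kilobase of merged exons, which no scaling of libraries changes. The ratio of MYC to MAX was 2.52, 2.55 and 2.53 in 3xCTL, 3.34, 3.24 and 3.31 in 3xSR and 3.33, 3.46 and 3.49 in MYC-OE. 1xCtrl averaged 3.12 ± 0.087 (SD, n = 3), SRSF2-OE 3.06 ± 0.037, SRSF3-OE 3.10 ± 0.025 and SRSF7-OE 3.10 ± 0.048. The ratio thus stood higher in 3xSR and MYC-OE than in 3xCTL by 0.76 and 0.89, while the means of SRSF2-OE, SRSF3-OE and SRSF7-OE differed from 1xCtrl by -0.05, -0.02 and -0.02, less than the SD of that control. The 2 controls differed as well (2.53 ± 0.013 and 3.12 ± 0.087); they belong to separate tables, so control line and table cannot be told apart.

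The ratio of MYC to MXD1 was 2.98, 2.88 and 2.86 in 3xCTL and 2.88, 2.97 and 2.98 in 3xSR, 2 overlapping groups. It was 3.18, 3.16 and 3.30 in MYC-OE. In 1xCtrl it was 3.02, 3.41 and 2.91, with replicate 2 apart, against 2.33, 2.26 and 2.26 in SRSF2-OE. SRSF3-OE had ratios of 2.62, 2.51 and 2.52, and SRSF7-OE of 3.34, 3.27 and 3.46. SRSF2-OE and SRSF3-OE thus lay wholly under their control, by 0.83 and 0.56 in the means. Against the sum of MXD1, MXD4, MXI1 and MNT, MYC stood at 1.46 ± 0.020 in 3xCTL, 1.79 ± 0.026 in 3xSR and 2.02 ± 0.058 in MYC-OE. On that measure 1xCtrl had 1.55 ± 0.18, SRSF2-OE 1.39 ± 0.039, SRSF3-OE 1.54 ± 0.12 and SRSF7-OE 1.82 ± 0.031. MXD3, another antagonist described below, is not a part of the sum. These ratios describe transcripts, not proteins, and were not tested.

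**Figure D3:**
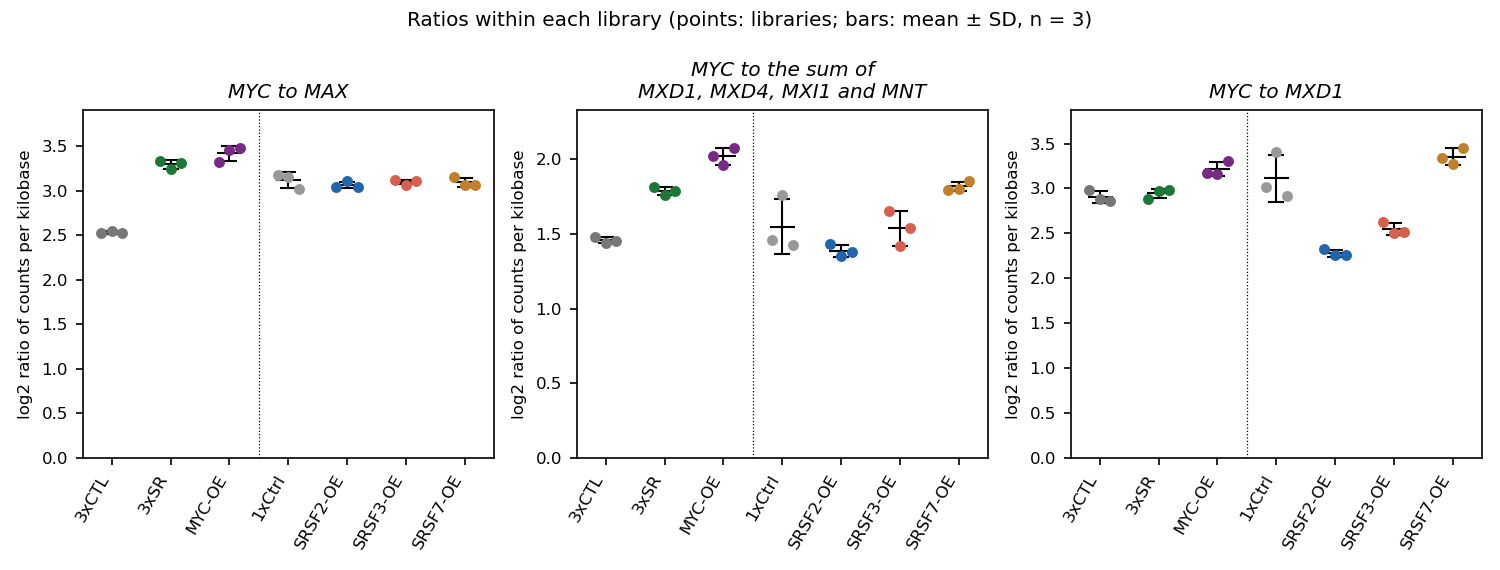
Log2 ratios of counts per kilobase of merged exons within each library (vertical axes, from 0) in the 7 groups, with points for libraries and bars for mean ± SD (n = 3). MYC to MAX is higher in 3xSR and MYC-OE than in 3xCTL, and MYC to MXD1 is lower in SRSF2-OE and SRSF3-OE than in 1xCtrl.

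Whether the joint line differed from the single lines was tested in a fit over all 21 libraries with each line set against its table's control. For MYC, the 3xSR effect exceeded the SRSF2-OE effect by 0.64, the SRSF3-OE effect by 0.50 and the SRSF7-OE effect by 0.48 (SE 0.074 in each, edgeR adjusted p = 3.24e-06, 7.87e-05 and 7.76e-05). MXI1 followed the same order, with differences of 0.77, 0.46 and 0.36 (SE 0.11, edgeR adjusted p = 3.69e-05, 0.00564 and 0.0215). The last of these was lost in 9 of 22 alternatives (adjusted p up to 0.0971), with only the groups compared and without 3xCTL replicate 3, 3xSR replicate 2 or 3, 1xCtrl replicate 1 or 3, or any SRSF7-OE library. The change of MXD1 in 3xSR was larger than the SRSF7-OE effect by 0.69 (SE 0.079, edgeR adjusted p = 3.2e-06). MAX went the other way, with differences of -0.28 from SRSF3-OE (edgeR adjusted p = 0.0183, lost in 3 of 22 alternatives, among them without 3xCTL replicate 1) and -0.31 from SRSF7-OE (edgeR adjusted p = 0.00746). In all, 3 members had the higher and 1 the lower effect in 3xSR against SRSF2-OE (13.3% and 8.53% of 25013 genes), 2 and 1 against SRSF3-OE (10.8% and 7.02%), and 4 and 1 against SRSF7-OE (13.6% and 10.9%), in sum 4 (21.9%), 3 (17.8%) and 5 members (24.6%). Table and control change together in these differences, so a difference between the 2 control lines enters each of them. For MYC the control means were 93.4 CPM in 3xCTL and 133 in 1xCtrl, each scaled within its own table. The means of the lines were 157 in 3xSR and 144, 159 and 161 in SRSF2-OE, SRSF3-OE and SRSF7-OE.

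Other genes of the pathway were taken from 9 lists with 153 distinct genes, 5 of them in more than 1 list. The extended network adds MXD3, another MXD antagonist, MLXIP and MLXIPL. MXD3 was 11.7, 7.93 and 9.26 CPM in 3xCTL and 5.23, 6.93 and 6.60 in 3xSR, at -0.62 (log2, SE 0.14, edgeR adjusted p = 0.00553), opposite in direction to MXD1 and MXI1. MXD3 shares 926 exon bases with RAB24 on its own strand, so its counts are uncertain. MLXIPL, named after its values were seen, was low, at 4.49, 8.21 and 3.89 CPM in 1xCtrl and 1.87, 2.80 and 2.56 in SRSF3-OE, and fell there by 1.2 (log2, SE 0.25, edgeR adjusted p = 0.00424). MLXIP, the MondoA gene, stayed short of the threshold in the 5 comparisons (log2 fold change from -0.21 to 0.05, edgeR adjusted p from 0.0676 to 0.75).

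The MLX and MondoA targets, many of them genes of glucose handling, held 6 tested genes of 7 listed, and 4 rose in 3xSR, 5 in MYC-OE, 1 in SRSF7-OE and 6 in SRSF3-OE. In SRSF2-OE 3 rose and 2 fell, where 11.9% of all genes were called lower. The shares of all genes called higher were 15.3% in 3xSR, 18.0% in MYC-OE, 9.03% in SRSF7-OE, 11.6% in SRSF2-OE and 15.0% in SRSF3-OE. The list's median log2 fold change was 0.37, 0.26, 0.11, 0.54 and 0.10 in the order 3xSR, MYC-OE, SRSF2-OE, SRSF3-OE, SRSF7-OE. TXNIP, which restrains glucose uptake and is a defining MondoA target, was 41.8, 44.9 and 39.8 CPM in 3xCTL, 71.6, 70.5 and 70.5 in 3xSR and 111, 124 and 112 in MYC-OE. Its rise was 0.75 for 3xSR (SE 0.060, edgeR adjusted p = 2.75e-06) and 1.46 for MYC-OE (SE 0.061, edgeR adjusted p = 7.72e-09), and the 3 groups did not overlap.

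TXNIP read 74.8, 69.2 and 81.4 CPM in 1xCtrl, 53.05, 50.5 and 48.5 CPM for SRSF2-OE and 124, 112 and 117 CPM for SRSF3-OE. It fell in SRSF2-OE by 0.57 (SE 0.068, edgeR adjusted p = 8.17e-05) and rose in SRSF3-OE by 0.65 (SE 0.068, edgeR adjusted p = 1.78e-05). Its value for SRSF7-OE was 0.14 (edgeR adjusted p = 0.175). ARRDC4, whose promoter is shown above, was 8.63, 12.5 and 9.25 CPM in 3xCTL and 21.7, 22.3 and 21.6 in MYC-OE, a rise of 1.11 (SE 0.12, edgeR adjusted p = 3.84e-05). In 3xSR its value was 0.04 (edgeR adjusted p = 0.855). ARRDC4 rose by 0.31 in both SRSF3-OE and SRSF7-OE (edgeR adjusted p = 0.0152 and 0.0230), the latter call being lost in 4 alternatives. It measured -0.03 in SRSF2-OE (edgeR adjusted p = 0.847). HK2, the first enzyme of glycolysis and also counted among the MYC targets, rose by 0.35 in 3xSR, 0.29 in MYC-OE, 0.60 in SRSF2-OE and 0.62 in SRSF3-OE (edgeR adjusted p = 0.000349, 0.001, 1.56e-05 and 6.46e-06) and measured -0.04 in SRSF7-OE (edgeR adjusted p = 0.723). Of the 7 listed targets 6 had a promoter window, which need not be the 6 tested genes. CACGTG stood in the windows of 5 of them (83.3%, against 8.77% of all genes with a window). No window with the motif was found for TXNIP.

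**Figure D4:**
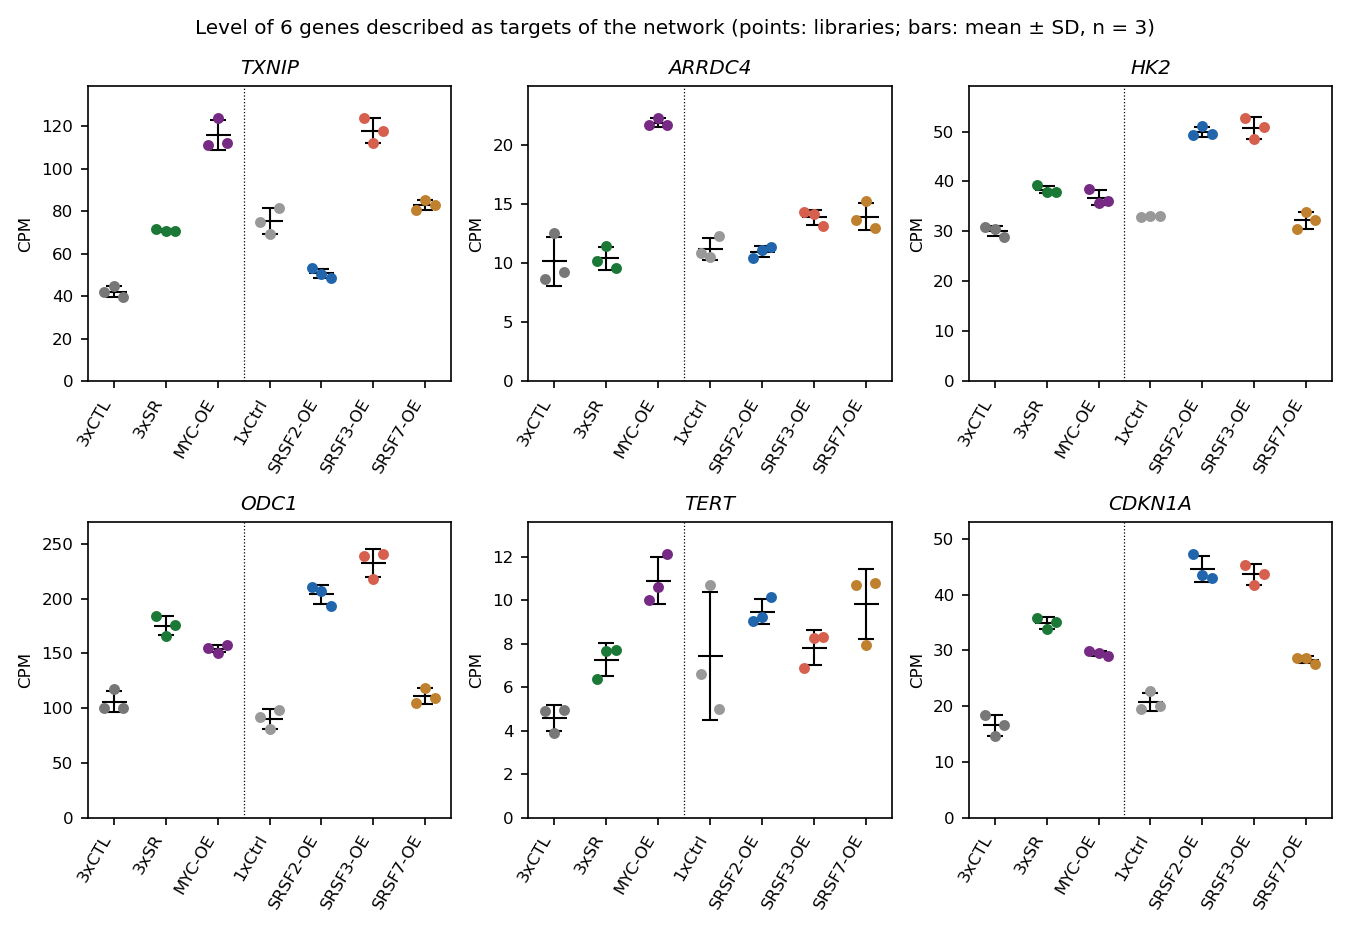
Level in CPM (vertical axes, from 0) of 6 genes described as targets of the network in the 7 groups, with points for libraries, bars for mean ± SD (n = 3) and a dotted line between the 2 tables. TXNIP and ARRDC4 are highest in the first table in MYC-OE, and CDKN1A and ODC1 are above their control in all 5 lines.

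Genes commonly read as activated by MYC, many of them for ribosome assembly, numbered 66, all tested. In 3xSR and in MYC-OE alike 12 rose and 8 fell, with medians of -0.03 and 0.07, which is near the shares over all genes (15.3% higher and 13.7% lower in 3xSR, 18.0% and 17.3% in MYC-OE). In SRSF3-OE 42 rose and 1 fell (median 0.33; 15.0% and 14.1% of all genes), in SRSF2-OE 24 and 1 (median 0.19; 11.6% and 11.9%) and in SRSF7-OE 13 and 4 (median 0.09; 9.03% and 8.26%). The count of higher genes in SRSF3-OE lay between 31 and 52 when any library was left out, but the others moved: without 1xCtrl replicate 2 the higher counts were 44 in SRSF2-OE and 32 in SRSF7-OE, and that of SRSF7-OE was 5 without 1xCtrl replicate 1 and 8, 6 or 4 without its own replicate 1, 2 or 3. The lower counts were 21 in 3xSR and 13 in MYC-OE without 3xCTL replicate 2, 5 in both without 3xCTL replicate 1, 5 in 3xSR without its replicate 3, and 5, 4 or 5 in MYC-OE without its replicate 1, 2 or 3. With the GC trend removed the higher counts were 20 in 3xSR, 19 in MYC-OE and 41 in SRSF2-OE. That setting also raised the higher calls over all genes, from 3543 to 3984 in 3xSR and from 4173 to 5127 in MYC-OE. In SRSF2-OE they went from 2823 to 4074. Shares over all genes with a library left out are not given here, so those counts cannot be set against the shares above. CACGTG stood in the promoter windows of 29 of the 53 genes that had one, and 20 of these 29 rose in SRSF3-OE, as did 16 of the 24 without it. In SRSF2-OE 13 with the motif rose and 1 fell, against 9 that rose without it, and in SRSF7-OE 8 rose and 2 fell against 4 and 2. In MYC-OE 8 rose and 3 fell with the motif against 3 and 5 without it, and in 3xSR 7 and 5 against 3 and 1. These differences were not tested.

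ODC1, the first enzyme of polyamine synthesis and a classic MYC target, rose in all 5 lines. It was 100.5, 117 and 100.4 CPM in 3xCTL, 184, 166 and 176 in 3xSR and 155, 151 and 157 in MYC-OE, and 91.6, 80.9 and 98.7 CPM in 1xCtrl, 210.5, 207 and 194 for SRSF2-OE and 239, 218 and 241 for SRSF3-OE. Its log2 fold changes were 0.73, 0.54, 1.17, 1.36 and 0.30 in the order 3xSR, MYC-OE, SRSF2-OE, SRSF3-OE, SRSF7-OE (edgeR adjusted p = 7.71e-06, 5.39e-05, 1.21e-06, 1.38e-07 and 0.0203). TERT, the telomerase subunit, rose by 0.66 in 3xSR and 1.24 in MYC-OE (each with SE 0.12, edgeR adjusted p = 0.00132 and 8.01e-06), from 4.93, 3.91 and 4.95 CPM to 6.40, 7.68 and 7.71 and to 9.99, 10.6 and 12.1. FBL, the methyltransferase of nucleolar RNA, fell in MYC-OE by 0.84 (SE 0.047, edgeR adjusted p = 1.02e-07), from 164, 159 and 152 CPM to 89.1, 89.1 and 87.5, and rose in SRSF3-OE by 0.31 (edgeR adjusted p = 0.00105). FBL fell also in SRSF2-OE by 0.35 and SRSF7-OE by 0.18 (edgeR adjusted p = 0.00082 and 0.042). In SRSF3-OE TFRC, the transferrin receptor, rose by 0.75 (SE 0.094, edgeR adjusted p = 6.67e-05) and the nucleoside transporter SLC29A2 was the 1 gene that fell (by 0.71, SE 0.15, edgeR adjusted p = 0.00554).

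Genes described as repressed by MYC (11 of 12 tested) were split: 4 rose and 4 fell in 3xSR, 2 and 4 in MYC-OE, 3 and 3 in SRSF2-OE, 2 and 3 in SRSF3-OE, and 3 and 2 in SRSF7-OE. Over all genes the higher and lower shares were 15.3% and 13.7% in 3xSR, 18.0% and 17.3% in MYC-OE, 11.6% and 11.9% in SRSF2-OE, 15.0% and 14.1% in SRSF3-OE, and 9.03% and 8.26% in SRSF7-OE. CDKN1A, which encodes the cell cycle inhibitor p21, rose in all 5 lines, by 1.08 in 3xSR, 0.83 in MYC-OE and, in the order of the single lines above, 1.10, 1.07 and 0.45 (edgeR adjusted p = 1.02e-06, 5.11e-06, 7.3e-07, 3.71e-07 and 0.00114). It went from 18.4, 14.6 and 16.7 CPM in 3xCTL to 35.8, 33.8 and 35.1 in 3xSR and 29.8, 29.5 and 29.04 in MYC-OE. THBS1, the angiogenesis inhibitor thrombospondin, fell in all 5, by 1.05, 0.49, 0.52, 0.27 and 0.54 in the same order (edgeR adjusted p = 9.51e-08, 2.61e-05, 0.000156, 0.00906 and 0.000301). NDRG1, a stress-responsive gene, rose by 1.29 in MYC-OE (SE 0.12, edgeR adjusted p = 3.31e-05), from 65.0, 45.7 and 63.1 CPM to 139, 144 and 142. It also rose by 0.60 in 3xSR, 0.54 in SRSF2-OE and 0.61 in SRSF7-OE (edgeR adjusted p = 0.00487, 6.66e-05 and 7.86e-05). In SRSF3-OE the NDRG1 value was 0.06 (edgeR adjusted p = 0.495).

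**Figure D5:**
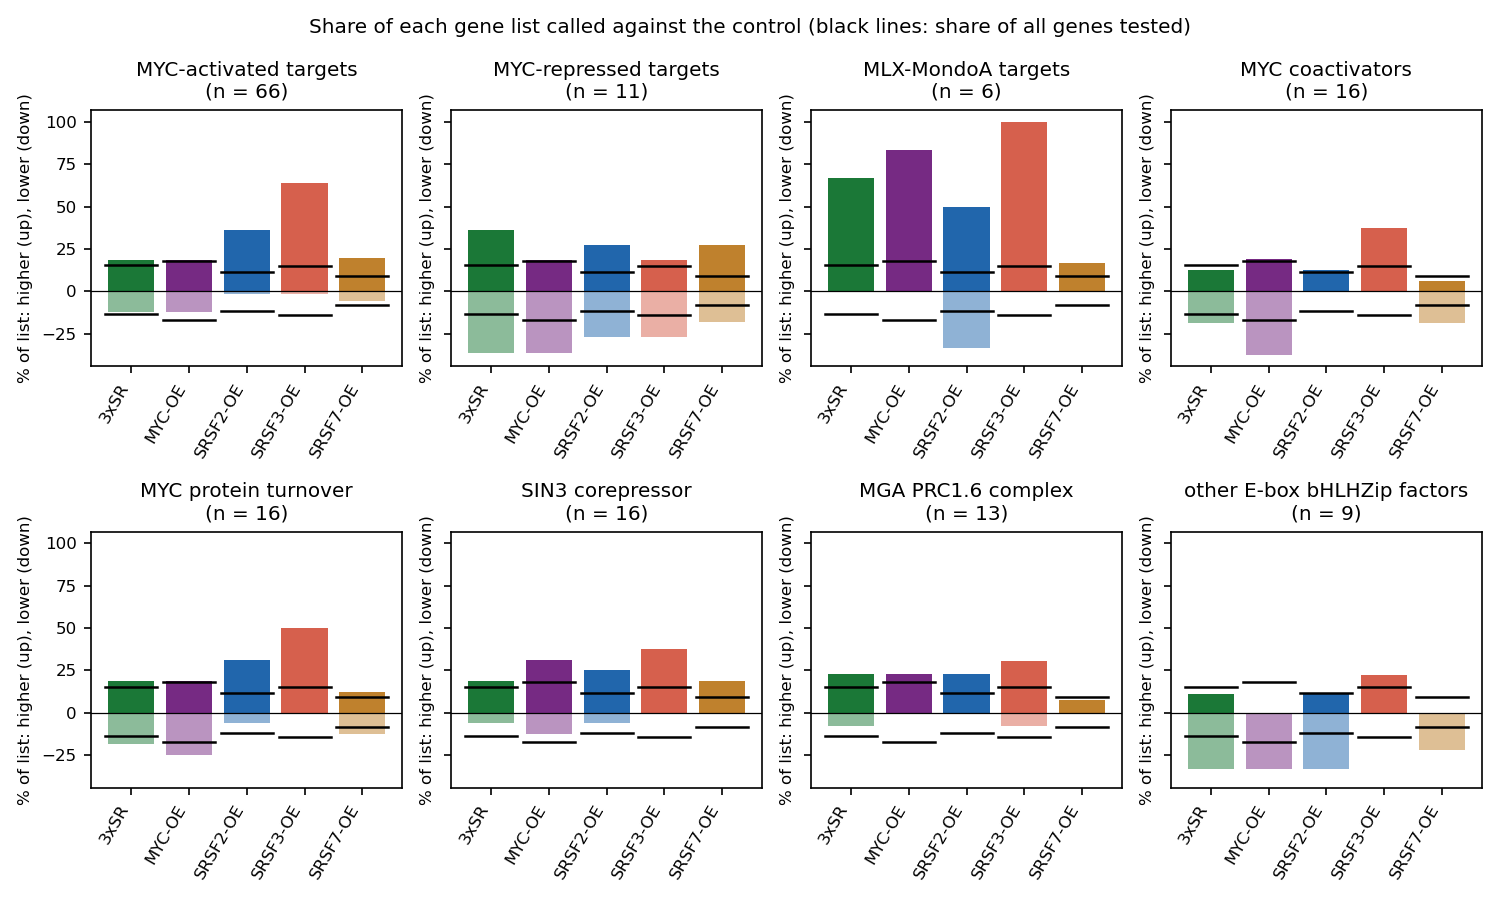
Share of each gene list that was called higher (upward bars) or lower (paler, downward bars) by edgeR against the control, in percent of the list's tested genes, for 5 lines; black lines give the same shares over all genes tested. For the MYC-activated targets the bar is tallest in SRSF3-OE, 42 of 66 genes.

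Among the cofactors that MYC recruits, 16 genes, 6 fell and 3 rose in MYC-OE (17.3% and 18.0% of all genes), and 6 rose in SRSF3-OE (15.0% of all genes; 3 without 1xCtrl replicate 1, 2 without SRSF3-OE replicate 1 and 3 without SRSF3-OE replicate 3). In the other lines 2 rose and 3 fell (3xSR; 15.3% and 13.7% of all genes), 2 rose (SRSF2-OE; 11.6%), and 1 rose and 3 fell (SRSF7-OE; 9.03% and 8.26%). Such small counts moved by over 1.5 times with single libraries, to 6 higher in SRSF2-OE and 5 in SRSF7-OE without 1xCtrl replicate 2 and 6 lower in 3xSR without 3xCTL replicate 2. The shares over all genes with a library left out are not given here. PAF1, of the elongation complex of that name, fell in MYC-OE by 1.07 (SE 0.048, edgeR adjusted p = 1.47e-08), from 84.5, 78.3 and 79.8 CPM to 38.1, 38.4 and 39.4, and in 3xSR by 0.32 (edgeR adjusted p = 0.000371). In SRSF3-OE, PAF1 rose by 0.30 (edgeR adjusted p = 0.00591). In the line with SRSF7 it fell by 0.28 (edgeR adjusted p = 0.0146), a call lost in 3 of 16 alternatives. ACTL6A, an actin-like subunit of chromatin remodellers, rose in all 5 lines, by 0.25, 0.35, 0.42, 0.40 and 0.26 in the same order (edgeR adjusted p = 0.00779, 0.000678, 0.000326, 0.000292 and 0.0103). Of the 16 genes that act on MYC protein stability, AURKA, a kinase that shields MYC proteins from degradation, rose by 0.50 in 3xSR, 0.67 in MYC-OE, 0.51 in SRSF2-OE and 0.45 in SRSF3-OE (edgeR adjusted p = 4.41e-05, 3.01e-06, 0.000289 and 0.000425). USP36, a nucleolar deubiquitinase of MYC, fell in MYC-OE by 0.53 (edgeR adjusted p = 2.02e-05) and rose in SRSF3-OE by 0.59 (edgeR adjusted p = 0.000107), with falls of 0.21 in 3xSR and 0.34 in SRSF7-OE (edgeR adjusted p = 0.0153 and 0.01). That list had 3 higher and 3 lower in 3xSR (15.3% and 13.7% of all genes) and 3 and 4 in MYC-OE (18.0% and 17.3%). It had 5 and 1 in SRSF2-OE (11.6% and 11.9%), 8 higher in SRSF3-OE (15.0%), and 2 and 2 in SRSF7-OE (9.03% and 8.26%). How these counts move with a library left out is not given here.

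The SIN3 corepressor, through which MXD proteins and MNT act, had 16 tested genes, of which 3 rose and 1 fell in 3xSR, 5 and 2 in MYC-OE, 4 and 1 in SRSF2-OE, 6 rose in SRSF3-OE and 3 rose in SRSF7-OE. Over all genes 15.3% rose and 13.7% fell in 3xSR, 18.0% and 17.3% in MYC-OE, 11.6% and 11.9% in SRSF2-OE, 15.0% and 14.1% in SRSF3-OE and 9.03% and 8.26% in SRSF7-OE. SIN3A, its scaffold, went 2 ways in the first table: it was 60.5, 62.9 and 59.7 CPM in 3xCTL, 53.4, 48.8 and 51.1 in 3xSR and 74.3, 69.7 and 72.3 in MYC-OE. SIN3A fell by 0.26 in 3xSR (SE 0.052, edgeR adjusted p = 0.00298) and rose by 0.24 for MYC-OE (edgeR adjusted p = 0.00325), with no overlap among the 3 groups, and it rose by 0.34 in SRSF7-OE (edgeR adjusted p = 0.0025). Of the 13 partners of MGA in PRC1.6, 3 rose and 1 fell in 3xSR, 3 rose in MYC-OE, 3 in SRSF2-OE, 4 rose and 1 fell in SRSF3-OE, and 1 rose in SRSF7-OE. TFDP2, a dimer partner of E2F6 in that complex, rose by 0.88 in 3xSR, 0.84 in MYC-OE and 0.65 in SRSF3-OE (edgeR adjusted p = 1.45e-06, 1.42e-06 and 1.53e-05), in the first table from a mean of 13.1 CPM ± 0.60 (SD, n = 3) to 24.2 ± 1.1 and 23.4 ± 1.3. Of 9 bHLHZip factors outside the network that also bind E-boxes, MITF, the melanocyte regulator, fell by 0.54 in 3xSR and 1.41 in MYC-OE (each with SE 0.10, edgeR adjusted p = 0.00181 and 8.98e-07), from 8.04, 7.70 and 7.45 CPM to 6.06, 4.92 and 4.93 and to 3.04, 2.95 and 2.72. MITF fell also in SRSF2-OE, by 0.48 (edgeR adjusted p = 0.0119), and measured 0.14 in SRSF3-OE (edgeR adjusted p = 0.45). The counts for the list of 9 factors were 1 higher and 3 lower in 3xSR, 3 lower in MYC-OE, 1 and 3 in SRSF2-OE, 2 higher in SRSF3-OE and 2 lower in SRSF7-OE.

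For each member the 3 genes with the most similar pattern were taken, by Pearson's r of log2 CPM less the control mean of the table, over 21 libraries and among 11266 genes; libraries of a group and of a table share their conditions, so r is a description. MYC was most like KCNMA1 (r = 0.98), KCNS1 (0.97) and CD40 (0.97). MXD1 was most like SMURF2 (0.96), TGFA (0.95) and the list gene HK2 (0.95). MXI1 was most like DENND11 (0.95), PHF10 (0.95) and FAM72A (0.94), and MGA like USP24 (0.98), GOLGB1 (0.95) and CRYBG3 (0.95). For MAX they were PSMB6 (0.91), the MYC target DCTPP1 (0.89) and SZRD1 (0.89), for MLX GINS3, U2AF1 and E2F3 (0.92, 0.92 and 0.91), for MNT PPP1R13L, TJAP1 and ANKRD13D (0.92, 0.90 and 0.89), for MYCL ALDOC, SMO and LRG1 (0.88, 0.88 and 0.85) and for MXD4 ZNF213, PLEKHM2 and ZER1 (0.91, 0.89 and 0.87).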

How the data were processed

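Strand-marking, polyA-selected libraries of HCC1806 cells were sequenced in pairs, per the labels. The authors deposited 2 tables of raw read counts per gene, 1 for 9 and 1 for 12 libraries. The submitters' processing notes name Trimmomatic 0.39, STAR, StringTie 2.1.3b and GRCh38.p13, with no role; the counting tool, its strand setting and the annotation are not given in the sources used here.

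Counts were fitted as deposited, per table, with edgeR 4.0.16 in R 4.3.3 (filterByExpr with a minimum count of 10 and a minimum total of 15, TMM factors, glmQLFit with robust estimates, glmQLFTest, two-sided). Benjamini-Hochberg adjustment ran over all genes of a table, and calls used an adjusted p under 0.05. All groups of a table shared 1 estimate of the spread, and 1 more fit over 21 libraries gave differences between effects. CPM in the text are plain, and log2 CPM used a prior count of 2. Reference symbols matched 42005 of 60668 identifiers. Positions, merged exon lengths and GC content came from GENCODE release 29, which held 58561 of the identifiers when versions are ignored and 41838 at the same version. Promoter windows came from RefSeq (GRCh38.p14).

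Depth sets counting error only; with 3 libraries a group, the spread between libraries limits the precision. Samples were grouped by their labels. Alternatives were DESeq2 1.42.0 with its own size factors, limma 3.58.1 (voom), RLE factors, upper-quartile factors, total counts alone, no filter, at least 10 counts in every library, only the groups compared, the replicate number as a block, the GC trend removed in 50 bins, and each library left out. The procedures were also run on counts simulated with the spread that edgeR itself had estimated, with no GC trend and no outlying libraries. That run therefore cannot show how they fare with such features in these data. The members and lists were chosen with earlier results of these data known. Text names all members and, of each list and each of 5 comparisons with a control, up to 2 genes with the highest and 2 with the lowest called change at a mean of at least 5 CPM; of these the text describes a selection.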

Additional observations from a re-analysis of the deposited data

Results flagged for a closer look

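Differences between the effect of 3xSR against 3xCTL and that of a single line against 1xCtrl passed the edgeR threshold in a joint fit for 5 members, and are given as the 3xSR effect minus the other (log2). For MYC they were 0.64 from SRSF2-OE, 0.50 from SRSF3-OE and 0.48 from SRSF7-OE, and for MXI1 0.77, 0.46 and 0.36 in that order. MAX differed by -0.28 from SRSF3-OE and -0.31 from SRSF7-OE. MXD1 differed by -0.23 from SRSF2-OE (edgeR adjusted p = 0.0465) and 0.69 from SRSF7-OE, and MGA by 0.34 from SRSF2-OE (edgeR adjusted p = 0.0499) and 0.46 from SRSF7-OE. The values for MXD1 and MGA against SRSF2-OE were lost in 14 and 15 of 22 alternatives, that for MXI1 against SRSF7-OE in 9 and that for MAX against SRSF3-OE in 3. Table and control change together here, so a difference between the control lines enters each value. Mean MYC was 93.4 CPM in 3xCTL and 133 in 1xCtrl. It was 157 in 3xSR and 144, 159 and 161 in SRSF2-OE, SRSF3-OE and SRSF7-OE. Mean MXI1 was 18.2 CPM in 3xCTL and 29.3 in 1xCtrl, beside 24.0 in 3xSR and 22.8, 28.3 and 30.3 in those lines.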

How the results depend on the processing

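Of 1890 alternative values for 108 results on members, 1757 kept the call (67 of them with the other sign, called in neither fit), 93 lost the call, 38 gained it and 2 reversed. With the GC trend removed MNT in 3xSR turned to 0.21 (edgeR adjusted p = 0.0103) and MYC in SRSF3-OE against SRSF7-OE to 0.12 (edgeR adjusted p = 0.0418); the cause was not tested. Members called moved as follows. In MYC-OE against 3xSR (2) they were 4 with only the groups compared and 0 to 2 with a library left out. SRSF2-OE (2) had 2 to 4 with a library left out. SRSF3-OE (4) had 2 without the filter, 1 with only its groups and 1 to 4 with a library left out. SRSF7-OE (2) had 0 with only its groups and 0 to 3 with a library left out. SRSF2-OE against SRSF3-OE (3) gave 1 with upper-quartile factors, 6 with the GC trend removed and 1 to 3 with a library left out. Against SRSF7-OE, SRSF2-OE and SRSF3-OE (3 each) gave 5 and 5 with the GC trend removed. The 3xSR effect minus the SRSF2-OE effect (4) gave 2 with upper-quartile factors, 2 without the filter and 2 to 4 with a library left out. Calls over all genes moved as well. With the GC trend removed, higher and lower genes went from 2823 and 2910 to 4074 and 4145 in SRSF2-OE. In SRSF7-OE they went from 2201 and 2013 to 3670 and 3339. Between lines such counts over all genes are not given here, so these moves are no result about the members. With longest transcripts as lengths, the ratio of MYC to MAX was 2.39 in 3xCTL and 2.97 in 1xCtrl. In 3xCTL MYC to the sum of MXD1, MXD4, MXI1 and MNT was then 1.34 and MYC to MXD1 3.06. Total counts alone moved the share of called genes that were higher from 49.2% to 36.7% in SRSF2-OE and from 51.6% to 32.1% in SRSF3-OE, and the median of all genes in SRSF3-OE from -0.03 to -0.14, against which MYC stood at 0.15 and MAX at 0.17 there. Same-numbered libraries did not deviate together (correlations from -0.190 to 0.0543), so the numbers were not taken as pairs. With the replicate number as a block, members called were 4 in 3xSR, 5 in MYC-OE, 3 in SRSF3-OE, 2 in SRSF2-OE and 2 in SRSF7-OE, and MGA in SRSF3-OE (adjusted p = 0.05) and MXD1 in the 3xSR effect minus the SRSF2-OE effect (-0.23, adjusted p = 0.06) were the calls it lost. Of 1856 alternative values for 116 results on named list genes 1702 kept the call, 154 lost it and 0 reversed.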
